A study of Mus musculus with 3 samples.

Results

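Trophectoderm transcription factors and keratins were followed as 10 genes: Cdx2, Gata2, Gata3, Tfap2a, Tfap2c, Eomes, Elf5, Krt7, Krt8 and Krt18. Their probes were found through the RefSeq transcript that the array design gives for each probe, and a table of RefSeq names. This gave 15 probes for 10 of 10 genes, out of 33759 named probes for 23458 genes and 56591 probes with a value on every array. Tfap2a was read by 4 probes, Tfap2c and Eomes by 2 each, and every other gene by 1 probe.

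The study asked whether gene expression in blastocysts of aging mice comes closer to that of young mice when signaling by the chemokine CXCL5 through its receptor CXCR2 is suppressed. Per the sample labels, ICR females were super-ovulated and mated, and the zygotes were cultured for 96 h in KSOM, a medium for preimplantation embryos. The mothers were 3 to 6 weeks old for young blastocysts and 43 to 53 weeks old for aging blastocysts, both cultured without additions. Suppressed aging blastocysts had mothers of 43 to 53 weeks too and were cultured with 10 μg/ml of an antibody that neutralizes CXCL5 together with a CXCR2 antagonist at 10 nM. Each condition was a single pool of 30 expanded blastocysts on 1 array, so embryos that did not reach this stage were not measured, and the effects of antibody and antagonist cannot be told apart. No young embryos with suppression were on the arrays. With 1 array per condition there is no replicate spread, so differences are given without a test or P-value.

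The trophectoderm is the outer epithelium of the blastocyst, which pumps fluid into the cavity, attaches to the uterus and gives rise to the trophoblast of the placenta. It is set apart from the inner cell mass when TEAD4 with its coactivator YAP turns on Cdx2 in outer cells, beside GATA and AP-2 factors that keep trophoblast genes active. Keratins 8 and 18 pair into the filaments of this first epithelium, and filaments of several keratins are tied to cell junctions by desmosomal proteins.

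Levels below are log2 scanner intensities (linear brightness of a spot after background subtraction) minus the 75th percentile of the same array, so that a positive level is brighter than most probes of that array. That percentile was at an intensity of 144.9 (young), 154.5 (aging) and 122.3 (suppressed aging). A probe counts as above background when the scanner software marks its spot as well above background, which held for 58.4%, 58.7% and 56.4% of the probes. All 15 member probes were above background on all 3 arrays, so every member was detected in every pool. Each member probe has 1 spot per array. Among 285 probes of the design that are spotted 10 times and were above background on all arrays, the difference of single spots between 2 arrays had a median SD of 0.0715, 0.0675 and 0.0688 in the 3 comparisons. This SD covers spot position and scanning, not embryos, RNA or amplification. A pool holds all cells of the embryos, so fewer trophectoderm cells and less RNA per cell cannot be told apart.

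In aging against young blastocysts, 8 of the 10 members had a lower level and 2 a higher level, each gene read by its brightest probe (that with the highest mean level). Tfap2c and Krt7 were lower by more than 2-fold, and no member was higher by more than 2-fold. Over all 16164 genes compared, 19.1% were past 2-fold in either direction and 9.19% were lower by that much. The median difference of the members was -0.25 on the log2 scale and that of all genes was 0.03, with 48.1% of all genes lower. The difference of a gene depended on its brightness. Cdx2, Gata2, Gata3, Tfap2a, Tfap2c, Krt8 and Krt18 lie in the brightest of 4 equal bins of the genes above background on both arrays, where 5.69% were past 2-fold and the median absolute difference was 0.29. Krt7 and Eomes lie in the next bin, where 12% were past 2-fold, and Elf5 in the one below, with 21.5%.

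**Figure D1:**
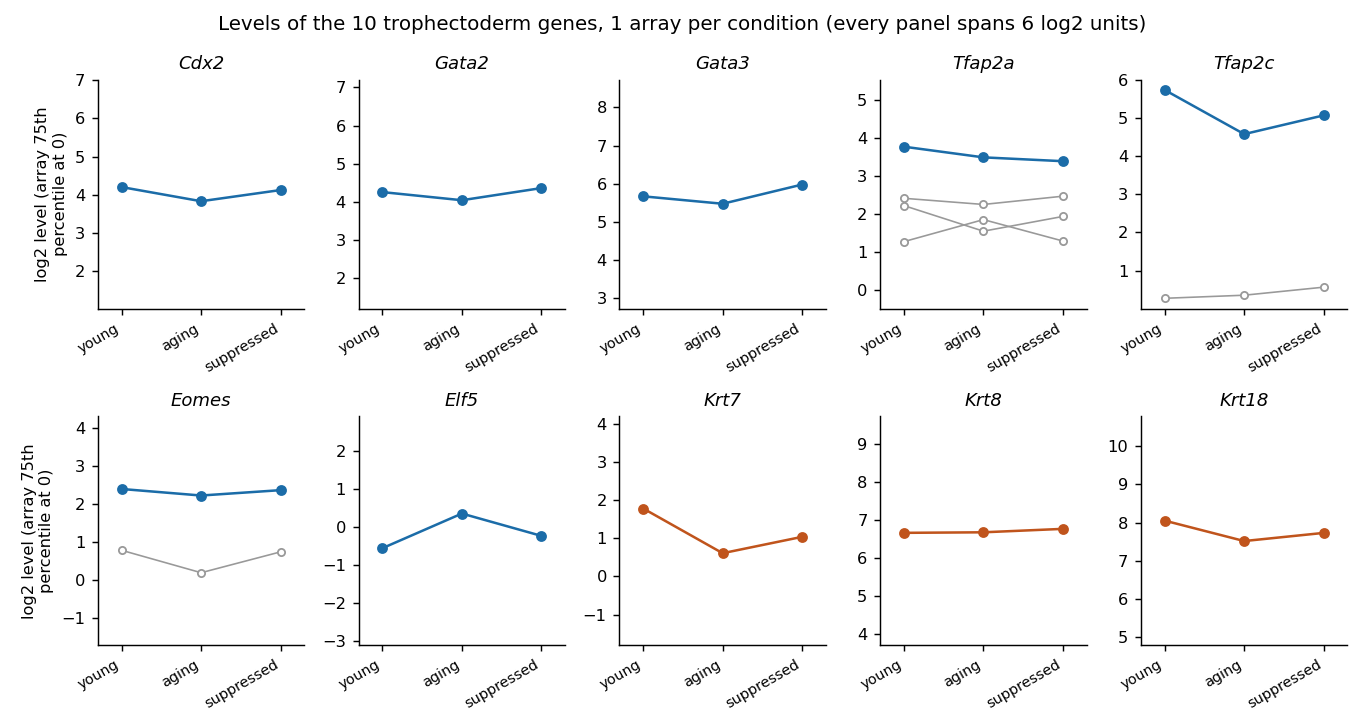
Log2 level of each of the 10 trophectoderm genes on the young, aging and suppressed aging arrays, with 0 at the 75th percentile of the array and every panel spanning 6 log2 units. Filled points are the brightest probe of a gene (blue for transcription factors, orange for keratins), open grey points its other probes, and there are no error bars because each condition has 1 array; Tfap2c and Krt7 show the deepest dips on the aging array, at 4.58 and 0.61, while Krt8 is nearly level.

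Cdx2, the caudal-type homeobox factor that holds cells in the trophectoderm fate, had an intensity of 2661 in young, 2195 in aging and 2129 in suppressed aging blastocysts. The corresponding levels were 4.20, 3.83 and 4.12. The aging array was lowest by 0.37 against the young and by 0.29 against the suppressed aging array, and the latter differed from young by -0.08, about the spread between single spots. Gata3, a zinc finger factor that acts beside Cdx2 downstream of TEAD4, had intensities of 7379, 6877 and 7718 and levels of 5.67, 5.48 and 5.98. Its aging level was 0.19 below young and its suppressed aging level was 0.50 above aging, which left suppressed aging the highest of the 3 by 0.31 over young. Gata2, which with Gata3 activates trophoblast genes, had levels of 4.26, 4.04 and 4.36. The differences were -0.21 for aging against young, 0.32 for suppressed aging against aging and 0.11 for suppressed aging against young. All 3 genes thus had their lowest level on the aging array, by less than 2-fold.

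The promoters of Cdx2 and Gata3 are shown because AP-2 proteins, encoded by 2 of the members, bind a known palindrome, and Gata3 held the most copies of it. The 250 bases before the annotated start are printed 5′ to 3′ on the coding strand, from RefSeq on GRCm38.p6, with matches to the AP-2 palindrome GCCNNNGGC in capitals. They lie at chr5:147307250-147307499 (Cdx2, minus strand) and chr2:9878601-9878850 (Gata3, minus strand).
Cdx2: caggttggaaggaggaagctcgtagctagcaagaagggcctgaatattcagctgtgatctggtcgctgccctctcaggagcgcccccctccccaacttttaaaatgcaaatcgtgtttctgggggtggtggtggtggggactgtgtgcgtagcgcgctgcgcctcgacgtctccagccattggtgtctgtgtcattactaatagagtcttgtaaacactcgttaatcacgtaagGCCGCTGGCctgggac
Gata3: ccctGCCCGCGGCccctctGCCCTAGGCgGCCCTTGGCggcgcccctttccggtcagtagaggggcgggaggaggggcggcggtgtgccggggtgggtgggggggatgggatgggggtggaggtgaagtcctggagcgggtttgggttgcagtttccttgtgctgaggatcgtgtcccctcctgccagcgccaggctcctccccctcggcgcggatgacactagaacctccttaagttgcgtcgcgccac
The Cdx2 window holds 1 match, which begins 16 bases before the start. The Gata3 window holds 3, which begin 246, 231 and 221 bases before it and do not overlap.

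Tfap2c, which encodes the AP-2γ factor of trophoblast and germ cells, showed the larger difference of the AP-2 pair. Its brightest probe had an intensity of 7720 in young, 3694 in aging and 4111 in suppressed aging blastocysts, or levels of 5.74, 4.58 and 5.07. Aging was 1.16 below young on the log2 scale, a 2.23-fold lower level, while suppressed aging was 0.49 above aging and differed from young by -0.66. The second probe of Tfap2c gave intensities of 175.3, 197.7 and 181.1 and levels of 0.27, 0.36 and 0.57, with aging 0.08 above young. The 2 probes of Tfap2c therefore did not show the same difference between aging and young, and their mean difference was -0.54. Both probes were higher on the suppressed aging than on the aging array, the second by 0.21.

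Tfap2a, which encodes AP-2α, had levels of 3.77, 3.49 and 3.39 by its brightest probe, with intensities of 1976, 1736 and 1282. The lowest level was on the suppressed aging array, unlike the other GATA and AP-2 members. Its 4 probes ranged from -0.67 to 0.58 in aging against young (3 lower, 1 higher), from -0.56 to 0.39 in suppressed aging against aging (2 higher, 2 lower) and from -0.38 to 0.06 in suppressed aging against young. The second probe, with levels of 2.42, 2.26 and 2.47, and the third, with 2.22, 1.55 and 1.94, were lowest on the aging array. The fourth, with 1.28, 1.86 and 1.30, was highest there. The probes of Tfap2a thus gave no common direction in any of the 3 comparisons.

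Eomes, a T-box factor needed for trophoblast stem cells, had levels of 2.39, 2.22 and 2.36, with intensities of 760.3, 720.2 and 628.6. Aging was 0.17 below young and 0.14 below suppressed aging. The second probe of Eomes went the same way with larger steps, at levels of 0.78, 0.20 and 0.74 (aging 0.59 below young). By both Eomes probes suppressed aging lay close to young, at differences of -0.03 and -0.04.

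Elf5, an ETS factor that reinforces Cdx2 and Eomes in the trophoblast lineage, was the dimmest member and ran the other way. Its intensity was 98.7 in young, 197.6 in aging and 104.3 in suppressed aging blastocysts, giving levels of -0.55, 0.35 and -0.23. Aging was 0.91 above young, just inside 2-fold, and suppressed aging was 0.58 below aging and 0.32 above young. Elf5 was the single member whose highest level was on the aging array.

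**Figure D2:**
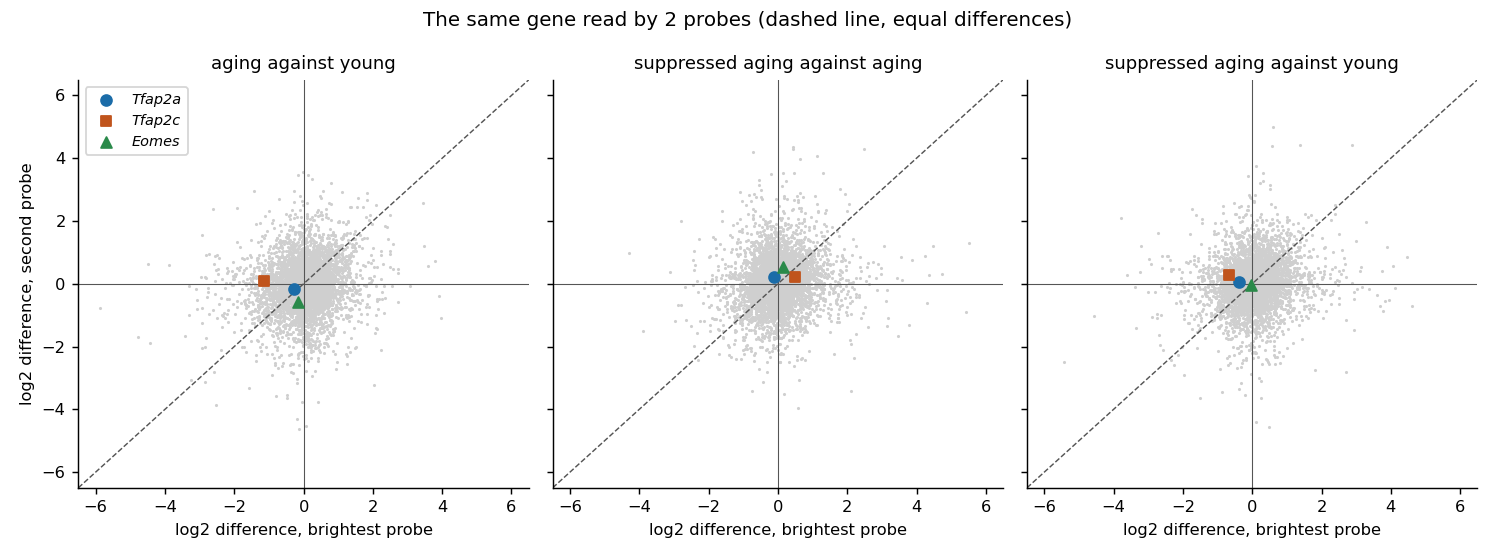
Log2 difference by the brightest probe (x axis) and by the second probe (y axis) of each gene with 2 probes above background on both arrays, in grey, with Tfap2a (circle), Tfap2c (square) and Eomes (triangle) marked and the dashed line showing equal differences. Tfap2c in aging against young lies far to the left of the dashed line, at -1.16 by the first probe and 0.08 by the second.

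How far 2 probes of one gene differ was measured over all genes on the arrays. Of 4861 genes with at least 2 probes above background on the young and aging arrays, the 2 brightest had differences of the same direction in 56.7%, and the median gap between the differences was 0.54. The gap of Tfap2c was 1.24, and 19% of these genes had a gap at least as wide. The gap was 0.12 for Tfap2a (87% at least as wide) and 0.42 for Eomes (59.4%). All 4 probes of Tfap2a together ranged more widely, from -0.67 to 0.58. In suppressed aging against aging the same direction was found in 54.8% of 4830 genes and in suppressed aging against young in 56.1% of 4817. Differences of members with a single probe have no such second reading.

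Among the keratins, Krt18 was the brightest member of all. This type I keratin, the partner of keratin 8, had intensities of 38450, 28310 and 25980 and levels of 8.05, 7.52 and 7.73. Aging was 0.53 below young, suppressed aging was 0.21 above aging and 0.32 below young. Krt8, the type II partner, had intensities of 14680, 15820 and 13330 and levels of 6.66, 6.68 and 6.77. Its differences were 0.01, 0.09 and 0.10 in the 3 comparisons, the smallest range of the 10 members and close to the spread between single spots. The partners thus did not show the same profile, since Krt18 spanned 0.53 over the arrays and Krt8 0.10. Krt7, a type II keratin of simple epithelia, had intensities of 497.5, 235.5 and 251, and levels of 1.78, 0.61 and 1.04. Its aging level was 1.17 below young, a 2.25-fold lower level, and the suppressed aging level was 0.43 above aging and 0.74 below young. Aging was thus the lowest array for Krt7 and Krt18, with suppressed aging between aging and young, and young was marginally the lowest for Krt8.

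The 3 keratin genes lie on chromosome 15, and between Krt8 and Krt18, which point in opposite orientations, the RefSeq table places 2 long noncoding RNA genes, Gm36026 and Gm41404. The promoters of the 3 keratin genes are shown side by side because these genes are related. Whether the promoter letters bear on their profiles was not tested. The windows are chr15:101412153-101412402 (Krt7, plus strand), chr15:102004343-102004592 (Krt8, minus strand) and chr15:102027966-102028215 (Krt18, plus strand) of GRCm38.p6, printed as above with AP-2 matches in capitals.
Krt7: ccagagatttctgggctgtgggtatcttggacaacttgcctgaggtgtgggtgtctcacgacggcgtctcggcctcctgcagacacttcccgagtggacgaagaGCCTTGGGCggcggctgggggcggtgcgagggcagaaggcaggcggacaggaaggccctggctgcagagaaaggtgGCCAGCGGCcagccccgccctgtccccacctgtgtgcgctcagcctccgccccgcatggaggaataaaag
Krt8: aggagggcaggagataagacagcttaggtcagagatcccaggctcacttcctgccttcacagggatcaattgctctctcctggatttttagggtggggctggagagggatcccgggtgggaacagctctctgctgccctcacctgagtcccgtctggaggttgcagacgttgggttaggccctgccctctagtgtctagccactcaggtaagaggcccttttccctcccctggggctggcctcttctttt
Krt18: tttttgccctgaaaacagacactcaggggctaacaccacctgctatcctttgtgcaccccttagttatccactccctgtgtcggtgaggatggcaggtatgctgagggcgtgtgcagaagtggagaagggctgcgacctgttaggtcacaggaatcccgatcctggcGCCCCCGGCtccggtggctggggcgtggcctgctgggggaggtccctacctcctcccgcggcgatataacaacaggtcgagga
The Krt7 window holds matches that begin 146 and 70 bases before the start and the Krt18 window 1 that begins 83 bases before it. The letters were not found in these 250 bases of Krt8.

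Promoter windows were found for 9 of the 10 members, 12 windows in all. GCCNNNGGC was present in 5 of the 12 (those of Cdx2, Gata3, Krt7 and Krt18 and 1 of the 2 of Gata2), and in 13.7% of all 32851 windows of this length. The member windows had a GC content from 46.4% (Eomes) to 74% (Gata2), beside a median of 52.4% over all windows, and the part of base composition in the matches was not tested. Motifs of the other member families and of TEAD factors were searched on both strands. The GATA motif AGATAA was found in 1 member window (Krt8) and 9.99% of all, the caudal factor motif TTTATT in 3 (Eomes, Gata2, Krt7) and 18.1%, the ETS motif CCGGAA in 1 (Gata3) and 12%, the T-box motif GGTGTGA in 1 (Elf5) and 3.33%, and the TEAD motif GGAATG in 2 (Elf5, Gata2) and 12.6%. A match describes letters in a window and is not evidence of binding.

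**Figure D3:**
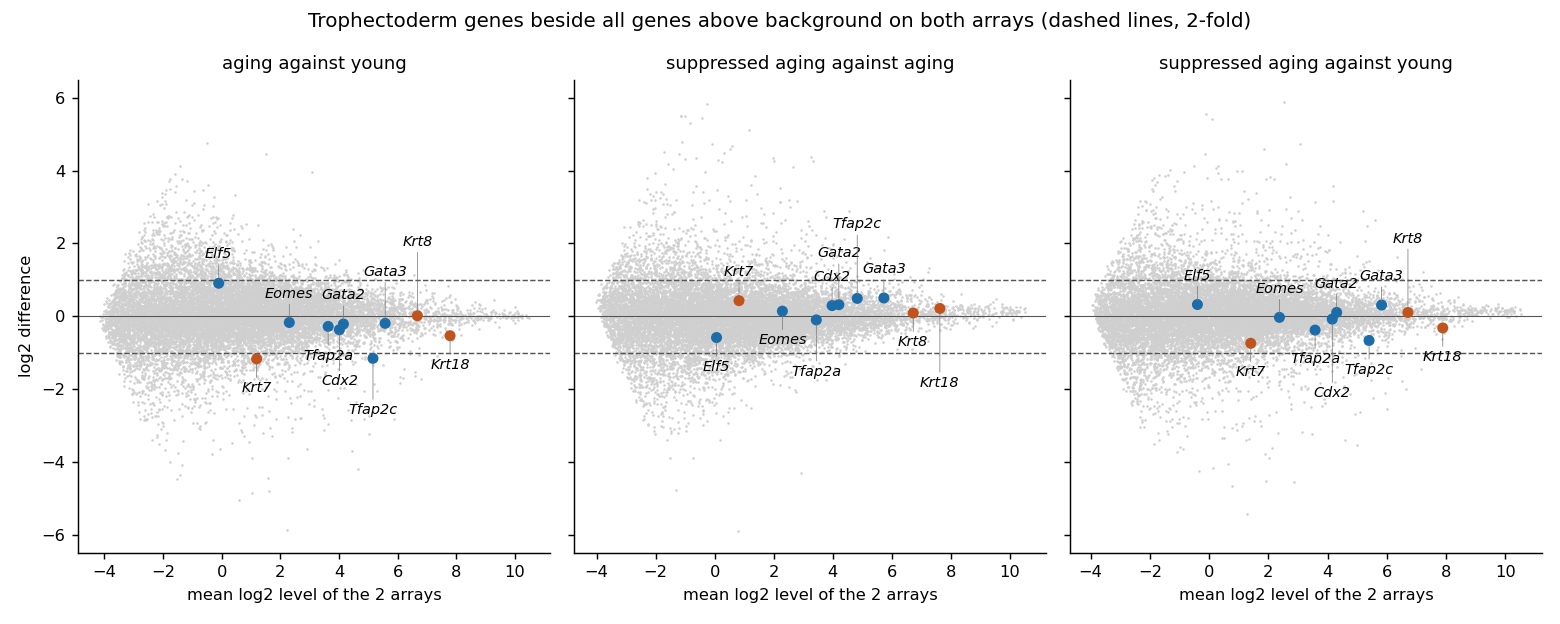
Log2 difference (y axis) against the mean log2 level of the 2 arrays compared (x axis) for all genes above background on both, each by its brightest probe in grey, with the transcription factors in blue and the keratins in orange and dashed lines at 2-fold. Tfap2c and Krt7 lie below the lower dashed line in aging against young, at -1.16 and -1.17, and no member lies past a dashed line in the other comparisons.

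In suppressed aging against aging blastocysts, 8 members had a higher level and 2 (Tfap2a and Elf5) a lower one, with 0 of 10 past 2-fold. Over all 15875 genes, 17.3% were past 2-fold and 49.7% were higher. In the brightest of the 4 bins of this comparison, which holds 7 of the members, 4.37% of genes were past 2-fold. The members' median difference was 0.25 and that of all genes -0.00. The differences ran from -0.58 (Elf5) to 0.50 (Gata3). This comparison shares the aging array with the first one, so the 2 sets of differences are not separate readings of the aging level. In suppressed aging against young blastocysts, 4 members were higher and 6 lower, again 0 of 10 past 2-fold beside 16.3% of 15931 genes, of which 47.6% were lower. In the brightest bin, again with 7 of the members, 5.85% of genes were past 2-fold. The members' median was -0.05, that of all genes was 0.03, and the members' range ran from -0.74 (Krt7) to 0.32 (Elf5).

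Taking the 3 arrays together, the aging array held the lowest level of 7 members, namely Cdx2, Gata2, Gata3, Tfap2c, Eomes, Krt7 and Krt18. Of the 13811 genes above background on every array, 33.9% had their lowest level there. The young array was highest for 6 members (30.9% of genes), the suppressed aging array for 3, namely Gata2, Gata3 and Krt8 (33.3%), and the aging array for Elf5 (35.8%). The neighbouring levels in these orders differed by less than 0.11 for Cdx2, Gata2 and Eomes (young and suppressed aging), for Tfap2a (aging and suppressed aging) and for Krt8 (all 3).

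Another 17 genes of the trophectoderm, listed apart from the members, were read the same way. In aging against young, 13 of 17 were lower and 4 higher, with a median of -0.35, beside 48.1% of all genes lower. Past 2-fold, 5 were lower and 1 was higher, where 9.19% of all genes were past 2-fold lower and 9.86% higher. Msx2, a homeobox gene, was at 3.60, 2.05 and 2.62 on the young, aging and suppressed aging arrays (aging 1.55 below young by its brightest probe, 0.57 above by its second). Lcp1, an actin-bundling protein, was at 5.73, 4.61 and 5.47, and all 3 of its probes were lower on the aging than on the young array. Hand1, a factor of trophoblast giant cells, was above background on the aging array alone, so aging was at least 2.85 above young on the log2 scale, and suppressed aging differed from aging by -2.58 or more in size.

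Of these 17 genes, 12 were higher and 5 lower in suppressed aging than in aging blastocysts (median 0.35), beside 49.7% of all genes higher. Grhl1, a grainyhead factor of epithelia, had levels of 1.74, 0.64 and 3.78, which put aging below young by more than 2-fold (-1.10) and suppressed aging 3.14 above aging and 2.04 above young. Krt19, a simple-epithelium keratin that is also counted among the keratins below, had levels of -0.23, -1.17 and 0.57 and was 1.74 above aging. Atp12a, a proton and potassium pump, was 1.04 below aging. Against young, 6 of 16 were higher and 10 lower (median -0.13), beside 47.6% of all genes lower.

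Of 47 keratins besides the members, 26 were above background on no array and 14 on all 3. In aging against young, 14 of the 19 that could be compared were lower and 5 higher (median -0.40), beside 48.1% of all genes lower. The difference was -1.31 for Krt72 and -1.18 for Krt87 on the log2 scale, and Krt28 was higher by at least 2.52. Krt72 was dim, with intensities of 26.16, 11.25 and 15.25 on the young, aging and suppressed aging arrays. In the dimmest of the 4 bins, 23.4% of genes were past 2-fold in aging against young. Between suppressed aging and aging, 13 of 20 were higher in the former and 7 lower (median 0.41), beside 49.7% of all genes higher. Of these 20 differences, 4 were bounds. Krt84 was at least 1.85 and Krt1 at least 1.37 higher in suppressed aging, being below background in aging. Both were dim in suppressed aging, at intensities of 22.02 and 15.85. Between suppressed aging and young, 11 were higher and 10 lower (median 0.07), beside 47.6% of all genes lower. Of the genes of desmosomes and keratin linkers, 7 of 11 were lower in aging against young (median -0.19), beside 48.1% of all genes. In suppressed aging against aging, 5 were higher and 6 lower (median -0.00), beside 49.7% of all genes higher. Dsc3, a desmosomal cadherin, was at -0.31, -2.41 and -1.39 by its brightest probe, and its other probes were below background on every array. Evpl, which encodes envoplakin, differed by -1.54 between aging and young. In suppressed aging against aging the difference was -2.08 for Eppk1, which encodes the keratin-binding epiplakin, and -1.35 for Pkp3, a plakophilin. The desmosomal cadherin Dsc2 was below background in aging and at least 1.45 higher in suppressed aging. Dsc2 was dim, with intensities of 10.04, 8.61 and 18.6 on the young, aging and suppressed aging arrays. Dsc3 was 1.02 higher by its brightest probe.

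**Figure D4:**
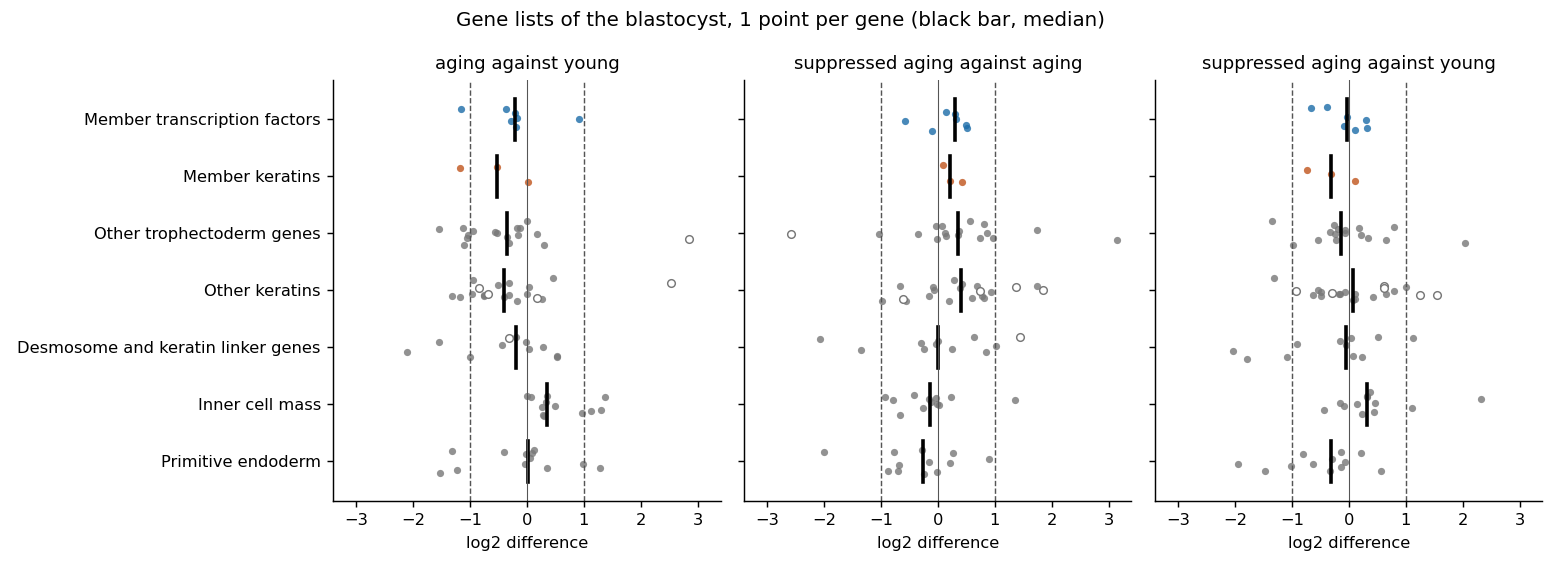
Log2 differences in the 3 comparisons for the member transcription factors (blue), the member keratins (orange) and the other lists (grey), 1 point per gene by its brightest probe, with black bars at the medians, dashed lines at 2-fold and open points where a gene was above background on 1 of the 2 arrays and the value is a bound. In aging against young the bars of the trophectoderm and keratin lists sit below 0 and that of the inner cell mass sits at 0.35.

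Markers of the other cells of the embryo were read beside the members. All 12 inner cell mass genes were above background on every array. In aging against young, 11 were higher and 1 was lower (median 0.35), beside 51.9% of all genes higher. Their summed brightness, in multiples of the 75th percentile of the array, was 1084 in young, 1309 in aging and 1213 in suppressed aging, and Nanog made up 86.1% to 86.9% of it. The same sum over the 10 members was 531.4, 403.4 and 474.6, of which Krt18 made up 44.8% to 49.9%. Probes can differ in brightness for the same gene, as those of Tfap2c do, so these sums do not compare the amounts of the lineages. Sox2, a pluripotency factor, was 1.37 higher in aging than in young and 1.10 higher in suppressed aging than in young. Klf2, another, was at levels of 2.29, 3.60 and 2.67, and Fgf4, the growth factor that the inner cell mass sends to the trophectoderm, at -0.32, 0.80 and 0.13. Pou5f1, at 5.93, 6.27 and 6.25, and Nanog, at 9.88, 10.14 and 10.03, differed by less than 2-fold. In suppressed aging, 3 of 12 were higher and 9 lower than in aging (median -0.13), beside 50.3% of all genes lower, with Spp1 1.36 higher. Against young, 9 were higher and 3 lower (median 0.32), beside 52.4% of all genes higher. The part of the proportion of inner and outer cells in the members' differences was not tested.

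The 12 primitive endoderm genes split evenly in aging against young, with 6 higher and 6 lower (median 0.02). In suppressed aging against aging, 9 of 12 were lower (median -0.26), beside 50.3% of all genes. In suppressed aging against young, 2 were higher and 10 lower (median -0.32), beside 47.6% of all genes lower. The summed brightness of the 12 genes on the same scale was 107.3, 93.9 and 81.4, with 41.1% to 50.9% of it from Dab2. Differences past 2-fold in aging against young, by the brightest probe, included -1.53 for Sox17, -1.23 for Sparc and 1.28 for Pdgfra, and Foxa2 differed by -2.00 between suppressed aging and aging. The second probe of Sox17 was 0.33 higher in aging than in young. The second probe of Sparc differed by -0.46. The second probe of Pdgfra was above background in aging alone, at least 0.24 higher than in young, and the third was below background on every array.

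Markers of later trophoblast and of maternal cells were read too. The giant cell gene Prl3d1, the spongiotrophoblast gene Tpbpa, Ctsq and Syna were above background on no array. The 3 genes of this list that were detected, Plet1, Gcm1 and Ascl2, were all higher in aging than in young (median 0.73). Plet1 was at 5.10, 5.82 and 5.43, and Gcm1 at 3.20, 3.33 and 3.70. Ascl2, a factor of the ectoplacental cone lineage, was at -2.63, -1.80 and 2.80, which made suppressed aging 4.60 above aging on the log2 scale by a single probe. Of 10 genes of cumulus and granulosa cells, 6 were above background on no array, among them Fshr, Inha, Has2 and Ptx3, and 4 on all 3. Amhr2 was 1.07 higher in aging than in young by its brightest probe, while its second probe differed by -0.76. Foxl2, read by a single probe, was bright on all arrays (8.66, 8.54 and 8.77). It made up at least 99.5% of the summed brightness of the list, which was 406, 374.8 and 439.2 times the 75th percentile. Whether this signal comes from maternal cells was not tested. Among 7 relatives of the AP-2 and GATA members, Gata5 was bright and nearly level (7.22, 7.33 and 7.38), and Gata1, a factor of blood cells, was below background in young and at -0.33 and 0.15 in aging and suppressed aging, at least 3.87 higher in aging. Tfap2b was above background in suppressed aging alone and by 1 of its 2 probes, at least 1.07 over aging. Its level there, -3.25, lay near the detection limit of -3.93.

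Genes with a profile most like that of a member were found by the root mean square difference of the 3 levels, each gene centred on its own mean, over 13810 genes. The nearest to Cdx2 were Hdac3 at 0.0039, Acot2 at 0.0042 and Gm10789 at 0.0076, and 1060 genes lay within 0.1. The nearest to Krt18 were Ddah1, Wipf3 and Oxtr (0.0037 to 0.0050), with 667 genes within 0.1, and among the nearest to Krt8 were Spop and Hyou1 (0.0018 and 0.0029), with 1737. Krt18 lay at 0.24 from Krt8, at place 5996.

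The differences of Krt8 changed sign with the processing. In aging against young the difference became -0.07 when arrays were centred on housekeeping genes. In suppressed aging against aging it became -0.01 after quantile normalization and -0.00 with normexp, another background correction. These sign changes leave 9 of 10 members lower in the first case and 7 of 10 higher in the others. The normexp setting starts from the median signal and local background of each spot, not from the processed intensity. It thus changes the signal measure as well as the background correction. With normexp, Krt7 was 0.96 lower in aging than in young and so inside 2-fold, and the differences of suppressed aging against aging were 0.14 for Krt7, 0.17 for Gata2 and 0.03 for Krt18.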

How the data were processed

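Total RNA from 1 pool of blastocysts per condition was amplified, labelled with Cy3 and hybridized to 3 Agilent mouse arrays on 1 slide. For the amplification the labels name a low-input labelling kit and the study's methods a PCR-based one, and which was used cannot be told here. The intensity per spot that the authors deposited was background-subtracted and detrended by Agilent Feature Extraction 12.0.3.1 and not normalized between arrays. A table of processed values, also deposited, holds those intensities times 1 factor per array (3.46, 3.34 and 3.96 on its 30763 spots), found by comparison of both, and has column medians of 174.9, 186.1 and 173.5 as intensities.

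From 59305 spots besides controls, those marked as outliers were left out, log2 intensities of the spots of a probe were averaged, and each array was centred on its 75th percentile. A gene above background on 1 array only gave a bound against the detection limit of the other array, and a gene above background on neither gave no difference. A gene was called past 2-fold when its log2 difference was over 1, with 5-fold as an alternative. Genes were named with RefSeq accessions from a GRCm38.p6 table, while the array design names an older build, so only the promoter windows carry coordinates. The intensity precision is limited by 1 array per condition. Python 3.11.15, pandas 2.3.3 and NumPy 2.4.6 were used, and R 4.3.3 with limma 3.58.1 for normexp (offset 50, on median spot signals) and quantile normalization. Scripts were tested on simulated data.

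All 10 members were named with all probes, and of each other list at most 4 genes with the largest differences past 2-fold between aging and young or suppressed aging and aging, beside the 3 nearest profiles for Cdx2, Krt8 and Krt18. Of these, 2 genes are not reported here. Pou5f1, Nanog, Foxl2, Gata5, Ascl2, Plet1, Gcm1, Dab2 and the genes below background were named after their values were seen. Members and lists were chosen with earlier results of these data known. Housekeeping genes (15, none past 2-fold in any comparison) served for an alternative centring.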

Additional observations from a re-analysis of the deposited data

How the results depend on the processing

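In aging against young, the number of members past 2-fold was 2. It was 1 with normexp on median spot signals, 1 when the probes of a gene were averaged and 0 at the 5-fold threshold. The members' median of -0.25 became -0.33 when arrays were centred on housekeeping genes, a setting that put the median of all probes at -0.11. In suppressed aging against aging the median of 0.25 became 0.13 with normexp and 0.16 with the authors' processed values. Housekeeping centring and the authors' values each differ from the main values by a constant per array. In a comparison they therefore move all members by the same amount. The causes of the other changes were not tested. The other counts and medians of the 3 comparisons moved little under the alternatives run. Of 30 member differences, 3 changed sign with normexp (Krt8 in suppressed aging against aging, Gata2 and Eomes in suppressed aging against young), 1 with quantile normalization and 1 with housekeeping centring (both Krt8), and 0 with the other settings. In an alternative chosen after seeing the data, the aging array was lowest for 7 members in every normalization except housekeeping centring, where it was lowest for 8. All 10 members were above background on each array also by the scanner's positive-and-significant flag. Over the settings Tfap2c ranged from -1.24 to -0.54 and Krt7 from -1.26 to -0.96 in aging against young. No paired analysis was possible because a condition is a single array, and leaving out a replicate was not possible either. The dimmest member, Elf5, lay 3.64 log2 units above the detection limit on the young array, and its aging against young difference of 0.91 was 0.65 with normexp.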
